A study of Mus musculus with 18 samples.

Results

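The 8 genes described here, *Hepacam2*, *Kcp*, *Tspan33*, *Ffar4*, *Enah*, *Klk1b9*, *Hemk1* and *Suox*, are genes whose RNA was low in GM-CSF cultures that cannot form STAT5 tetramers. They were matched by gene symbol in an RNA-seq table of 20298 genes, and were chosen by the size and consistency of their decrease in mutant cells on day 3 or day 6, outside known lists of dendritic cell genes. The genotype difference on those days is therefore given as a description with no test. Ly6C+ CCR2+ monocytes were enriched with a kit from the bone marrow of wild-type (WT) C57BL/6 mice and of DKI mice of the same strain, which carry knock-in mutations in the N-domains of both *Stat5a* and *Stat5b* in every cell, so that STAT5 dimers form but tetramers do not. Both genotypes were sampled untreated (day 0) and on day 3 or 6 of culture in 20 ng/mL GM-CSF, which gave 6 groups of 3 libraries from 3 independent experiments. The age of the mice, and whether animals were pooled, is not given in the sources used here. Liver is entered as the tissue in the sample labels, but the series' design and the study's methods name bone marrow. Of 5 hepatocyte markers, 4 (*Alb*, *Ttr*, *Serpina1a* and *Cyp3a11*) were at 0 in all 18 libraries.

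GM-CSF is a cytokine that turns monocytes into monocyte-derived dendritic cells and macrophages. Its receptor activates STAT5, which enters the nucleus as a dimer, and neighbouring dimers can join through their N-domains into tetramers that bind paired DNA sites. The 8 genes have unrelated products. *Hepacam2* (an immunoglobulin-family adhesion protein known from tuft cells) and *Tspan33* (a tetraspanin that escorts the protease ADAM10) are membrane proteins, and *Ffar4* is a receptor for long-chain fatty acids. *Kcp* (a modulator of BMP signalling) and *Klk1b9* (a kallikrein-related serine protease) are secreted. *Enah* binds the growing ends of actin filaments, *Hemk1* methylates the release factors that end mitochondrial translation, and *Suox* oxidises sulfite in mitochondria.

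Several of the results below concern genes that lie beside one of the 8 on the chromosome, and the stretches between or before them are shown first. The sequences and positions are those of RefSeq on GRCm38.p6, the build the authors call mm10. All 8 genes matched an entry in the promoter table. The first sequence is the whole interval of 202 bases between the outermost annotated start of *Hemk1* (minus strand) and the start of *6430571L13Rik* (plus strand), a head-to-head pair at chr9:107340438-107340639, with CCAAT in capitals. CCAAT or its complement ATTGG occurred 2 times in it and in 37.4% of 32851 promoter windows of 300 bases. The second is a stretch of 30 bases at the start of *Cish*, on the plus strand at chr9:107296655-107296684, with the 2 matches to the STAT5 consensus TTCNNNGAA in capitals.
6430571L13Rik-Hemk1: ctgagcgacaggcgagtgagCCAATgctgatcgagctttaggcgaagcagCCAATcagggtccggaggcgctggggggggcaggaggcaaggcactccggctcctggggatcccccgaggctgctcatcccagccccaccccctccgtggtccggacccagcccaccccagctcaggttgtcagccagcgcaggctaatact
Cish: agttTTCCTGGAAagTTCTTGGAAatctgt

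The next sequences are the 250 bases before the starts of *Klk1b9* (chr7:43975811-43976060), *Klk1b1* (chr7:43966501-43966750) and *Klk1b11* (chr7:43995627-43995876), adjacent members of the kallikrein cluster on the plus strand. They are shown because these genes are near copies and *Klk1b1* has the profile closest to that of *Klk1b9*. The capitals mark 1 of the 3 runs of 12 bases that all 3 share, and no longer run is shared.
Klk1b9: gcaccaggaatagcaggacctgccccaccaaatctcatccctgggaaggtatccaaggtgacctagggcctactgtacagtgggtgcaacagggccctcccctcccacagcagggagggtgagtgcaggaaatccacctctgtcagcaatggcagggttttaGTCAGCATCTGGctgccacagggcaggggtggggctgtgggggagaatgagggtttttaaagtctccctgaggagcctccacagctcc
Klk1b1: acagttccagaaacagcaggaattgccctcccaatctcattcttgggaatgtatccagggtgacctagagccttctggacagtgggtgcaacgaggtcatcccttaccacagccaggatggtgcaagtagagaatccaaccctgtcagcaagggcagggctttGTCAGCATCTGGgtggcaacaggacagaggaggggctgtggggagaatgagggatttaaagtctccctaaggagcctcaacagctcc
Klk1b11: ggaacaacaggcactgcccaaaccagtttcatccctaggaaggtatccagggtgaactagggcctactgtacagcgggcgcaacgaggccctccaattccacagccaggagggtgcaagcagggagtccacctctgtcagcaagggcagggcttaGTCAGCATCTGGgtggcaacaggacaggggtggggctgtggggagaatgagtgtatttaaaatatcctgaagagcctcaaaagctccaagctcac

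Over their windows of 300 bases, which run from 250 bases before to 50 after the start, *Klk1b9* was identical to *Klk1b1* at 83.3% of aligned positions and to *Klk1b11* at 80.6%. None of the 8 genes had TTCNNNGAA, a palindrome that reads the same on both strands, in this window, which holds it in 8.30% of all promoters. No match says only that these letters are absent from this window. The study describes tetramers as able to bind suitably spaced sites of lower affinity that depart from the consensus, and such sites were not searched. The promoter table uses a start inside the outermost one by 3824 bases for *Hepacam2*, 7576 for *Enah*, 2087 for *Hemk1* and 51 for *Kcp*, so the outermost starts of the first 3 were not covered. The interval of 202 bases before that of *Hemk1* held 0 matches.

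Levels are given as RPKM, reads per kilobase of gene scaled to the mapped reads, so they can be compared between genes per length. The libraries held between 29.5 M and 43.2 M reads, and whole reads could be recovered from the RPKM steps. Summed RPKM of 8 markers of monocyte-derived dendritic cells, all of them detected and led by *Cd74*, was between 29484 and 38092 in WT and between 3467 and 11645 in DKI on day 3, and between 23442 and 43102 in WT and between 5070 and 15852 in DKI on day 6. Summed RPKM of 5 macrophage markers, all of them detected, went the other way, with a highest WT library of 447 and a lowest DKI library of 872 on day 3, and of 556 and 759 on day 6. The sum of 6 monocyte markers was also higher in DKI without overlap, with a highest WT library of 1780 and a lowest DKI library of 2109 on day 3, and of 1602 and 1844 on day 6. That of 6 neutrophil markers was between 87.7 and 411 in WT and between 486 and 1119 in DKI on day 3, and the genotypes overlapped on day 6. The sum of 5 B cell markers was low but also higher in DKI without overlap on both days, at most 0.459 RPKM in WT and at least 1.25 in DKI on day 3, and 0.736 and 1.21 on day 6. That of 5 stromal cell markers was so on day 3, at most 0.770 in WT and at least 0.956 in DKI. Day 0 libraries held more RNA of some other cell types. The sum of 5 erythroid cell markers was between 3.86 and 33.6 RPKM on day 0 and at most 0.111 on day 3. That of 5 eosinophil markers was between 132 and 475 on day 0 and between 5.22 and 35.1 on day 3. Their part in the results below was not tested, and in bulk RNA fewer cells of a type and less RNA per cell cannot be told apart. *Stat5a* itself was at 42.6 RPKM in WT and 12.4 in DKI on day 3.

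Before GM-CSF the 8 genes were low in both genotypes, and their levels did not differ detectably between WT and DKI. *Hepacam2*, *Kcp*, *Ffar4*, *Enah* and *Klk1b9* were under 0.5 RPKM in every day 0 library, and *Hemk1* lay between 0.722 and 1.40. *Kcp* had at most 2 reads in any day 0 library and *Klk1b9* at most 4, where a count of 0 allows 3 reads. *Suox*, at 1.08 to 2.01 in WT and 0.986 to 3.11 in DKI, and *Tspan33*, at 0.874 to 2.67 and 0.604 to 3.77, were the highest.

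Day 0 libraries were not used to choose the genes, so this difference was tested with limma. None of the 8 was called (an adjusted p under 0.05 with a change of more than 1.5-fold), beside 0.0% of 10417 genes, and none had an unadjusted p under 0.05, either in this test or with limma voom on the recovered reads. Over all genes 47 and 50 reached that unadjusted level in these tests. On day 0 the WT and DKI libraries that share a number departed from their group means alike, and a fit that adds the replicate as a block brought 420 genes to it, again none of the 8. The log2 differences, DKI minus WT on the log2(RPKM + 1) scale, were between -0.06 and 0.13, and every adjusted p from limma was 1.0. For genes this low the added 1 RPKM narrows the interval whatever the ratio, so that of *Kcp*, which had 1 or 2 reads in each of the 6 libraries, does not bear on whether the genotypes differed. For the 2 genes with the most RNA the 95% interval was -1.19 to 1.06 (*Tspan33*) and -0.59 to 0.86 (*Suox*), and a difference of 1.5-fold in either direction lies within it. With the replicate number as a block these intervals were -0.47 to 0.35 and -0.23 to 0.49.

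**Figure D1:**
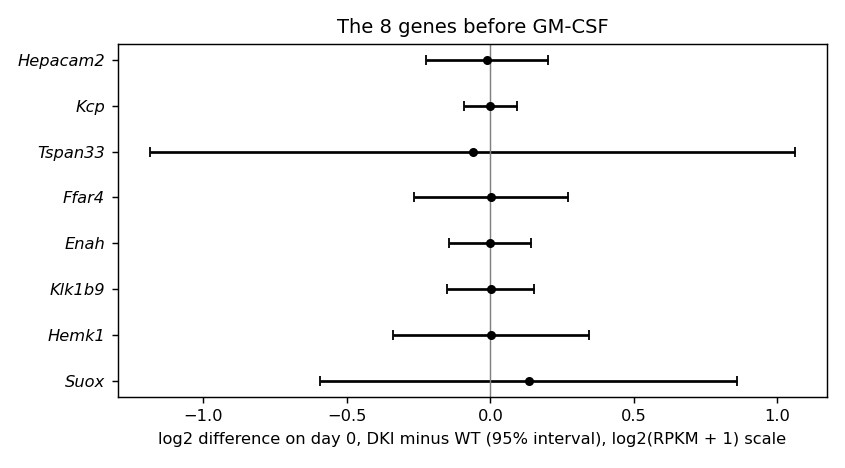
Log2 difference on day 0 (DKI minus WT, log2(RPKM + 1) scale, 3 libraries each) of the 8 genes, with points for the limma estimate and bars for its 95% interval. Every interval includes 0, and the widest is that of Tspan33, from -1.19 to 1.06.

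After GM-CSF all 8 genes were higher in every WT library than in any DKI library on both days. This is what they were selected on, and over the 10417 genes that exceeded 2 RPKM in the mean of any group the same held for 22.1% on day 3 and 25.4% on day 6. In WT all 8 were above their day 0 range on both days, as were 29.4% of all genes on day 3 and 28.3% on day 6. In DKI the pattern was mixed. *Hepacam2*, *Kcp*, *Enah* and *Hemk1* were above their day 0 range on day 3 (background 21.4%), and all but *Tspan33* were so on day 6 (background 21.3%). *Klk1b9* had 1 and 0 reads in DKI replicates 1 and 2 on day 3, under the 3 reads that a count of 0 allows, and was not detectable there at this depth. All 8 genes passed the minimum of 2 RPKM, and *Kcp*, *Ffar4* and *Enah* did so only through WT cells with GM-CSF.

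**Figure D2:**
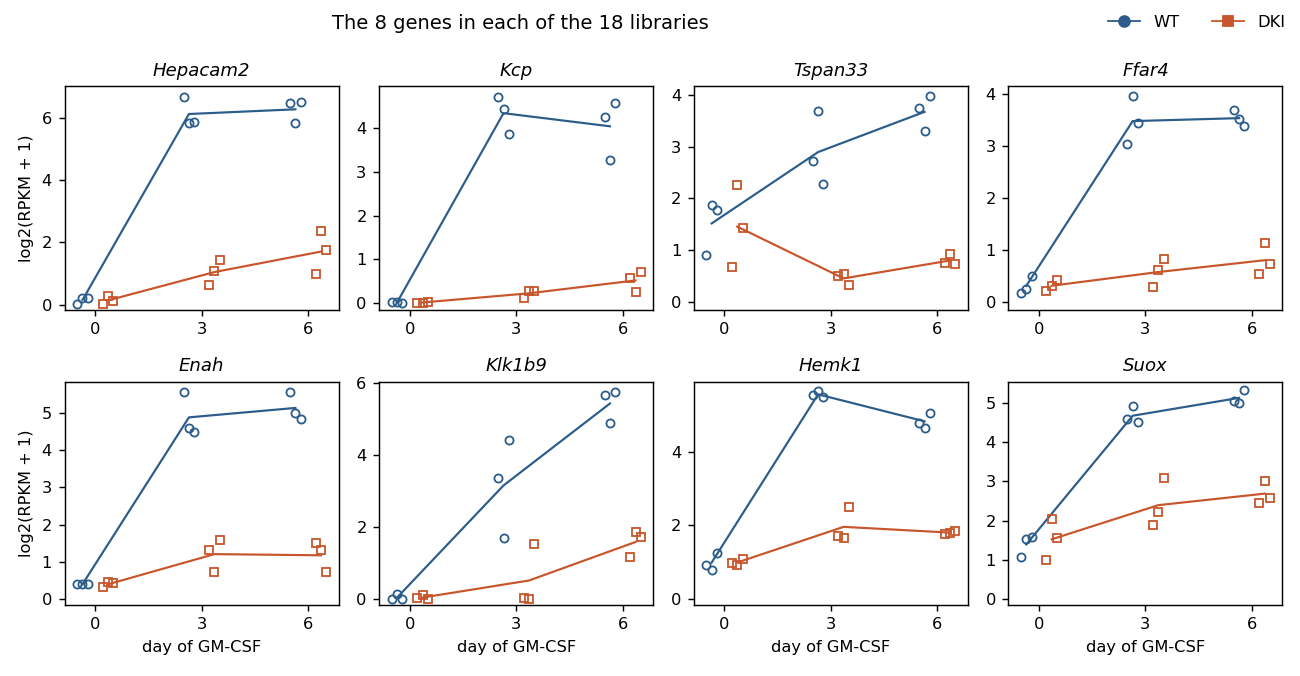
log2(RPKM + 1) of each of the 8 genes against the day of GM-CSF, with 1 open symbol per library (circles WT, squares DKI, 3 per group) and lines joining the group means. WT and DKI libraries overlap on day 0 and are separate on days 3 and 6, most narrowly for Klk1b9 on day 3.

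Among the membrane proteins, *Hepacam2* was the most abundant of the 8 in WT. On day 3 its RPKM was 100.3, 55.3 and 57.1 in WT replicates 1 to 3 and 0.569, 1.10 and 1.69 in DKI. On day 6 it was 86.4, 56.1 and 89.7 in WT and 0.982, 4.15 and 2.40 in DKI. The mean in DKI was 1.58% of WT on day 3 and 3.24% on day 6, and the lowest WT library exceeded the highest DKI library 32.6-fold and 13.5-fold.

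*Tspan33*, like *Suox*, was already present before GM-CSF. Its RPKM was 5.66, 11.9 and 3.84 in WT and 0.415, 0.454 and 0.246 in DKI on day 3. On day 6 the values were 12.4, 8.84 and 14.8 in WT and 0.679, 0.890 and 0.664 in DKI. All 3 DKI libraries of day 3 lay under all 3 DKI libraries of day 0, a position that 33.3% of genes held, whereas WT lay above its day 0 range. In log2 units the mean step from day 0 to day 3 was 1.38 in WT and -1.003 in DKI.

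*Ffar4*, the fatty acid receptor, reached a similar level on both days in WT. Its RPKM in WT was 7.21, 14.5 and 9.84 on day 3 and 11.9, 10.5 and 9.44 on day 6. In DKI it was 0.219, 0.529 and 0.761 on day 3 and 0.454, 1.18 and 0.664 on day 6, which rests on 12 to 64 reads per library. The DKI mean was 4.78% of WT on day 3 and 7.20% on day 6.

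Of the secreted proteins, *Kcp* went from 1 or 2 reads per library on day 0 to between 2147 and 4365 reads in WT on day 3. Its RPKM on day 3 was 25.3, 20.7 and 13.7 in WT and 0.0884, 0.203 and 0.210 in DKI. On day 6 it was 18.2, 8.71 and 23.02 in WT and 0.483, 0.199 and 0.644 in DKI. With 119-fold on day 3 and 37.6-fold on day 6 it had the largest ratio of WT to DKI means among the 8 on both days.

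*Klk1b9* was the latest of the 8 in WT and, relative to its mean, varied most between the WT libraries of day 3. On day 3 its RPKM was 9.19, 2.26 and 20.3 in WT and 0.0292, 0 and 1.88 in DKI, so that WT replicate 2 exceeded DKI replicate 3 by only 1.2-fold. On day 6 it was 49.2, 28.5 and 52.4 in WT and 1.26, 2.62 and 2.32 in DKI. The WT mean on day 6 was 4.10 times that on day 3, while for the other 7 genes this ratio was between 0.597 for *Hemk1* and 1.69 for *Tspan33*. Of all 50-base windows in the annotated transcript of *Klk1b9*, 17.2% were also found in another gene, most of all in *Klk1b3*, so part of its reads could belong to its near copies. *Klk1b3* itself had a mean of only 0.0869 RPKM in WT on day 6. The share found in the more abundant *Klk1b1* and *Klk1b11* is not given here.

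*Enah*, the actin regulator, was higher in every WT library than in any DKI library on both days, as were all 8 genes. Its RPKM was 46.1, 22.9 and 21.5 in WT and 1.48, 0.658 and 2.01 in DKI on day 3. On day 6 it was 46.4, 30.7 and 27.5 in WT and 1.82, 1.48 and 0.653 in DKI. WT replicate 1 was the highest library on both days, and the DKI mean was 4.58% and 3.78% of WT.

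The mitochondrial enzyme *Hemk1* had the tightest WT values of the 8 on day 3 and was higher on day 3 than on day 6 in every WT library. It was at 45.3, 49.1 and 43.3 RPKM in WT and 2.27, 2.17 and 4.70 in DKI on day 3. On day 6 it was at 26.3, 24.0 and 31.9 in WT and 2.40, 2.49 and 2.59 in DKI.

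*Suox* kept the highest level in DKI of the 8 genes. Its RPKM was 23.4, 29.3 and 21.8 in WT and 2.68, 3.66 and 7.48 in DKI on day 3. On day 6 the values were 32.5, 31.2 and 39.2 in WT and 4.51, 7.14 and 4.99 in DKI. Its ratio of WT to DKI means, 5.39-fold and 6.19-fold, was the smallest of the 8 on both days.

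The median log2 difference over the 8 genes was -3.25 on day 3 and -3.27 on day 6, beside -0.10 and -0.15 over all genes tested. On day 3 DKI replicate 3 was the highest DKI library for 7 of the 8 genes, and it was also the highest DKI library for the summed dendritic cell markers (11645 RPKM). On day 6 DKI replicate 2 was the highest for 5 of the 8 genes, and it had the highest sum of these markers (15852 RPKM). In WT the order differed. WT replicate 2 was the highest WT library of day 3 for 4 of the 8 genes but had the lowest sum (29484 RPKM). WT replicate 3 was the highest of day 6 for 6 of the 8, whereas the sum was highest in WT replicate 1 (43102 RPKM). Whether the 8 genes follow these markers was not tested.

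To place each gene, the others whose profile over the 18 libraries lay closest to it were sought, by the root mean square (RMS) difference of log2(RPKM + 1) after centring each gene on its mean. The closest were *Il2ra* (the interleukin-2 receptor alpha chain, RMS difference 0.59) and *Itgae* (the integrin CD103, 0.61) to *Hepacam2*, beside a median of 2.67 over 10416 genes. *Mycl* (a transcription factor of dendritic cells, 0.41) and *Hemk1* (0.42) were closest to *Kcp*, and *Kcp* (0.46) and *Hemk1* (0.49) to *Enah*. *Hs3st3b1* (0.33) and *Kcp* (0.42) were closest to *Hemk1*. *Rabgap1l* (0.32) and *Map3k14* (0.33), a kinase of the alternative NF-kappaB pathway, were closest to *Tspan33*. For the remaining genes the closest were *Cyb561* (0.33) and *Mab21l3* (0.35) to *Ffar4*, *Klk1b1* (0.53) and *Fndc5* (0.63) to *Klk1b9*, and *Spint2* (0.28) and *Tmtc2* (0.31) to *Suox*. *Kcp* and *Hemk1* were thus each among the closest profiles of the other, and both were those closest to *Enah*. The choice of the 8 genes by a common decrease bears on this likeness.

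The genes beside the 8 on the chromosome were not part of the choice, and their genotype difference was tested. With the 8 themselves left out, the 3 nearest annotated genes on each side, or the only one on the lower side of *Hepacam2*, gave 42 genes. The minimum of 2 RPKM was passed by 25. Of these, 6 fell in DKI on day 3 and 9 on day 6, and none rose. However, 4 of the 25 (*Rbp4*, *Strip2*, *6430571L13Rik* and *Ikzf4*) exceeded the minimum only in WT with GM-CSF, as did 3.27% of all genes tested, so that of these only a fall could be called. Among the other 21 neighbours, 4 (19.0%) fell on day 3 and 5 (23.8%) on day 6, beside 3.26% and 3.46% of all genes tested. None of the 21 rose, beside 2.43% on day 3 and 1.94% on day 6. With the replicate number as a block, 3 of the 21 fell on day 3, beside 1.9% of all genes in that fit, and only *Cish* on day 6, beside 1.46%. The 10 neighbours that fell on either day lay beside 6 of the 8 genes, and the 6 of them that are among the 21 lay beside 4 (*Kcp*, *Tspan33*, *Klk1b9* and *Hemk1*). Of the 10, *Irf5*, *Cish*, *Mapkapk3*, *6430571L13Rik* and *Ikzf4* fell on both days. The median log2 difference of the 21 was -0.43 on day 3 and -0.53 on day 6, and that of all 25 was -0.44 and -0.85. Of all 25, 4 fell on each day with the block, *Irf5*, *Klk1b1*, *Cish* and *6430571L13Rik* on day 3 and *Strip2*, *Cish*, *6430571L13Rik* and *Ikzf4* on day 6, when *Samd9l*, beside *Hepacam2*, rose. The calls lost under the block had adjusted p between 0.057 and 0.088 in it.

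**Figure D3:**
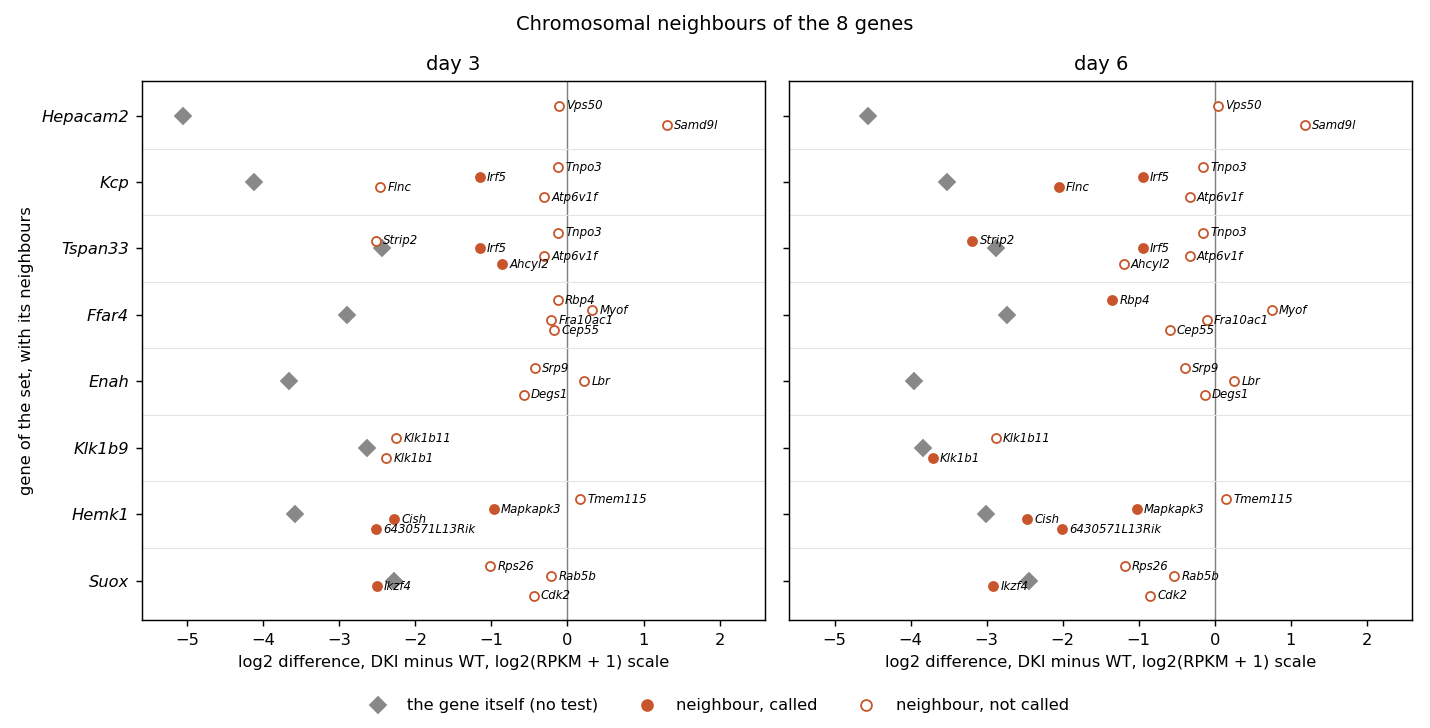
Log2 difference (DKI minus WT, log2(RPKM + 1) scale) on day 3 and day 6 of each of the 8 genes (grey diamonds, no test) and of its chromosomal neighbours with a mean above 2 RPKM (circles, filled where called by limma). Called neighbours lie to the left of 0 for Kcp, Tspan33, Ffar4, Klk1b9, Hemk1 and Suox, and no neighbour of Hepacam2 or Enah was called.

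The head-to-head partner of *Hemk1*, *6430571L13Rik*, was at 4.88, 6.89 and 5.29 RPKM in WT and 0.06, 0.17 and 0.24 in DKI on day 3. Its log2 difference was -2.52 ± 0.16 (SE; adjusted p = 0.0036, limma) on day 3 and -2.01 ± 0.16 (adjusted p = 0.0098) on day 6. Only a fall could be called on either day, since it exceeded the minimum in WT with GM-CSF alone. Like *Hemk1* it was higher on day 3 than on day 6 in all WT libraries. *Cish*, a feedback inhibitor of cytokine signalling and a known STAT5 target 24297 bases from *Hemk1*, was at 200.1, 176.5 and 175.1 RPKM in WT and 28.3, 35.2 and 51.0 in DKI on day 3. It fell by 2.28 ± 0.23 in log2 units on day 3 and by 2.47 ± 0.20 on day 6 (adjusted p = 0.0097 and 0.0098, limma). *Mapkapk3*, a kinase downstream of p38 on the far side of *Cish*, fell by 0.97 and 1.03, and *Tmem115*, on the other side of *Hemk1*, had log2 differences of 0.16 and 0.15 and was not called. The annotated *Hemk1* and *6430571L13Rik* do not overlap, with 202 bases between them. The counting of these libraries by strand is not given in the sources used here, so reads of either that ran into the other cannot be told apart.

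*Ikzf4*, which encodes the transcription factor Eos, begins 215 bases past the end of *Suox* on the same strand. It was at 5.64, 15.7 and 3.38 RPKM in WT and 0.36, 0.51 and 0.28 in DKI on day 3, and at 13.02, 13.4 and 19.6 in WT and 0.63, 1.22 and 1.67 in DKI on day 6. The log2 difference was -2.51 ± 0.48 (adjusted p = 0.041) on day 3 and -2.91 ± 0.25 (adjusted p = 0.010, limma) on day 6. It too exceeded the minimum in WT with GM-CSF alone, and its day 3 call was lost with the block (adjusted p = 0.057, limma). *Rab5b*, on the other side of *Suox*, was not called, at -0.22 and -0.53.

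*Kcp* and *Tspan33* lie on the same stretch of chromosome 6, with *Irf5* (a transcription factor of inflammatory genes) and *Tnpo3* (a nuclear import receptor) between them. *Irf5* was at 283 RPKM in WT and 127 in DKI on day 3 and fell by 1.15 ± 0.17 (adjusted p = 0.021, limma), while *Tnpo3*, which overlaps its end on the other strand, had log2 differences of -0.12 and -0.16 and was not called. Further out, *Flnc* (an actin crosslinker) fell by 2.05 ± 0.36 on day 6, *Strip2* (a scaffold protein) fell by 3.19 ± 0.28 on day 6, and *Ahcyl2* fell by 0.86 ± 0.16 on day 3. The genes that fell in this stretch were therefore interleaved with genes that were not called. *Rbp4*, a retinol carrier 2356 bases from *Ffar4*, was at 2.17 RPKM in WT and 0.196 in DKI on day 6 and fell by 1.35 ± 0.25 (adjusted p = 0.044, limma). With the block *Rbp4* (adjusted p = 0.074, limma), *Flnc* (0.082) and *Ahcyl2* (0.088) were no longer called. *Rbp4* and *Strip2* are among the neighbours of which only a fall could be called.

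No neighbour of *Hepacam2* or *Enah* was called without the block, but only 2 and 3 of them were fitted. *Vps50* begins 70 bases from *Hepacam2* and had log2 differences of -0.11 ± 0.17 on day 3 and 0.05 ± 0.18 on day 6. *Samd9l*, the other fitted neighbour, had log2 differences of 1.31 ± 0.52 and 1.19 ± 0.32 and was called higher on day 6 with the block (adjusted p = 0.044, limma). The 3 fitted neighbours of *Enah* (*Lbr*, *Srp9* and *Degs1*) had log2 differences between -0.58 and 0.26 on the 2 days, and none was called.

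Of the 10 neighbours that fell, 9 had promoter entries. TTCNNNGAA was found in 3 of these, those of *Cish*, *Ahcyl2* and *Strip2*, beside 8.30% of all promoters, and in *Cish* its 2 matches began at bases 1 and 12 of the transcript.

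**Figure D4:**
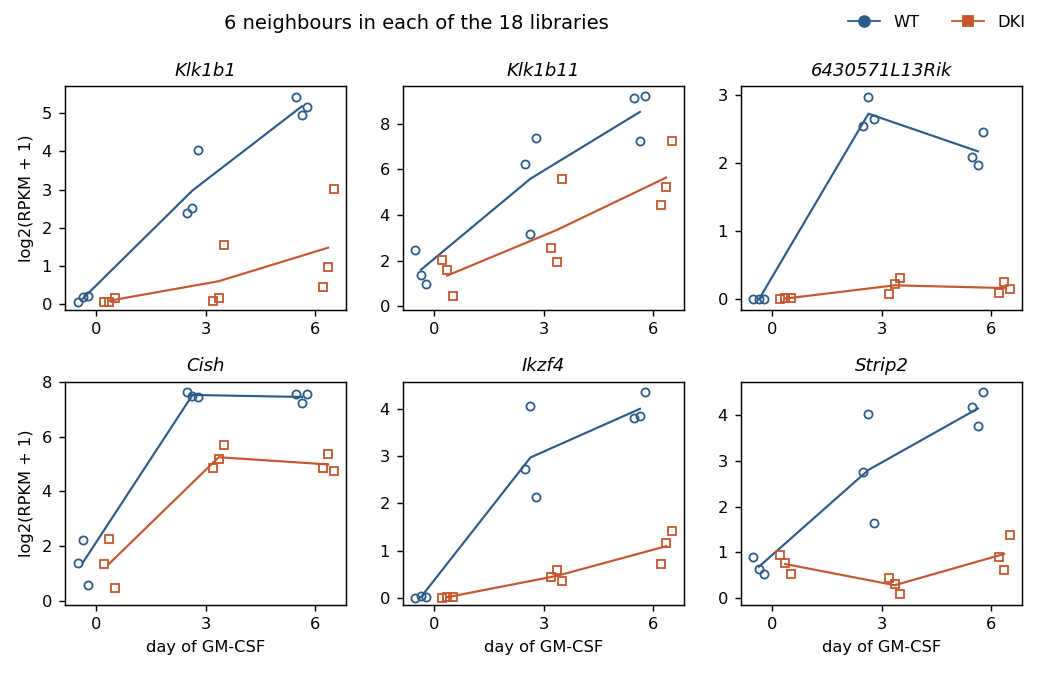
log2(RPKM + 1) against the day of GM-CSF for 6 neighbours of the 8 genes, with 1 open symbol per library (circles WT, squares DKI) and lines joining the group means. The groups are separate on day 6 for Klk1b1, 6430571L13Rik, Cish, Ikzf4 and Strip2, whereas those of Klk1b11 overlap on day 3 and touch on day 6.

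Of 24 kallikrein genes in the list, 4 (*Klk1b1*, *Klk1b11*, *Klk1b27* and *Klk15*) passed the minimum of 2 RPKM, and 4 others were at 0 in every library. *Klk1b1*, 4742 bases from *Klk1b9*, was at 42.3, 30.3 and 34.6 RPKM in WT and 0.35, 0.97 and 7.05 in DKI on day 6, and fell by 3.71 ± 0.67 (adjusted p = 0.041, limma). *Klk1b11* was far more abundant, at 559, 150.9 and 589 RPKM in WT and 20.99, 36.5 and 150.7 in DKI on day 6. WT replicate 2 and DKI replicate 3 were nearly equal, and the difference of -2.88 ± 0.87 was not called (adjusted p = 0.10, limma). *Klk15* fell on day 3 by 1.22 ± 0.21 (adjusted p = 0.034, limma). On day 6 its log2 difference was larger, -2.31 ± 0.54, with 5.84 RPKM in WT and 0.116 in DKI, but it was not called (adjusted p = 0.065, limma). It exceeded the minimum only in WT with GM-CSF, so only a fall could be called. DKI replicate 3 was the highest DKI library of day 6 for *Klk1b1* and *Klk1b11*, unlike for *Klk1b9*.

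The other genes of the pathways of the 8 were listed by function. Of 177 genes in 8 lists, 117 passed the minimum, of which 6 (5.13%) fell and 6 (5.13%) rose on day 3, beside 3.26% and 2.43% of all genes tested. On day 6, 4 (3.42%) fell and 3 (2.56%) rose, beside 3.46% and 1.94%. With the replicate block 8 (6.84%) fell and 4 (3.42%) rose on day 3, beside 1.9% and 1.71% of all genes tested in that fit, and 3 (2.56%) fell and none rose on day 6, beside 1.46% and 0.806%. Each of these shares rests on 8 genes or fewer. The calls lost under the block were those of *Klk15*, *Zyx*, *Tspan14* and *Adam17* on day 3 and of *Smurf1*, *Klk1b1*, *Tes*, *Tspan4*, *Pparg* and *Xdh* on day 6, with adjusted p between 0.051 and 0.088 in it. Genes called lower only with the block were *Avil* (adjusted p = 0.044, limma), *Tgfbr1* (0.034), *Klk1b1* (0.027) and *Nlrp3* (0.036) on day 3 and *Inhba* (0.030) and *Hcar2* (0.048) on day 6. The median log2 difference over the 117 was 0.02 on day 3 and -0.09 on day 6. For *Hemk1*, none of 15 mitochondrial translation and methylation genes was called on either day, and *N6amt1*, its closest relative in the list, was at 4.91 RPKM in WT and 5.67 in DKI on day 3. For *Suox*, *Got1* (an aspartate aminotransferase) fell by 1.23 on day 3 and *Xdh* (another molybdenum enzyme) rose by 1.62 on day 6 among 16 genes.

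Among 18 actin partners of *Enah*, *Tes* (which binds *Enah*) fell by 2.32 ± 0.27 on day 3 and by 2.23 ± 0.33 on day 6 (adjusted p = 0.014 and 0.031, limma), *Zyx* (zyxin, which recruits *Enah* to adhesion sites) fell by 1.34 ± 0.24 on day 3, and *Fyb* (an adaptor that binds the same family) rose by 2.71 ± 0.29 on day 3. The family members *Vasp* and *Evl* were not called, at 274 and 25.4 RPKM in WT and 157 and 42.4 in DKI on day 3. The 3 Ena/VASP genes thus had different values: *Enah* was at 4.58% of WT, whereas *Vasp* had a log2 difference of -0.80 ± 0.18 and *Evl* of 0.75 ± 0.21.

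Among 23 tetraspanin and ADAM genes listed with *Tspan33*, *Tspan4* rose on both days (log2 difference 1.65 ± 0.24 and 2.02 ± 0.34), and *Tspan14* (of the same ADAM10-binding group) and *Adam17* rose on day 3 by 0.94 ± 0.13 and 0.88 ± 0.14. *Tspan13* fell by 2.35 ± 0.35 on day 6. *Tspan5* and *Tspan17*, also ADAM10 partners, were not called on either day, and *Tspan10* and *Tspan15* were at most 0.133 RPKM in the GM-CSF group means.

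Of 15 fatty acid genes listed with *Ffar4*, *Ffar2*, a receptor for short-chain fatty acids, fell by 2.44 ± 0.42 on day 3, from 13.1 RPKM in WT to 1.35 in DKI. *Hcar2*, the receptor for niacin and ketone bodies, fell by 2.55 ± 0.29. *Fabp4*, a fatty acid carrier, rose by 3.99 ± 0.45 on day 3, from 2.03 to 51.3 RPKM, and *Pparg*, a fatty acid-activated transcription factor, rose by 1.70 ± 0.26 on day 6. *Ffar1* and *Ffar3* were at most 0.057 RPKM in the GM-CSF group means.

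Of 5 tuft cell genes that passed the minimum, *Hpgds*, a prostaglandin D synthase, rose by 2.83 ± 0.39 on day 3. On day 6 it was not called (adjusted p = 0.20, limma). The other 4 were not called on either day without the block. Their day 3 log2 differences were -1.62 (*Avil*), -1.51 (*Ltc4s*), -0.94 (*Alox5*) and 0.60 (*Gfi1b*). With the block *Avil* was called lower on day 3 (adjusted p = 0.044, limma). *Hepacam*, the namesake of *Hepacam2*, was at most 0.013 RPKM in the GM-CSF group means. Of 21 BMP and TGF-beta genes listed with *Kcp*, *Smurf1*, a ubiquitin ligase of the pathway, fell by 0.89 ± 0.17 on day 6 and no other was called. With the block *Smurf1* was no longer called (adjusted p = 0.066, limma), whereas the receptor gene *Tgfbr1* on day 3 and *Inhba*, which encodes the activin A subunit, on day 6 were called lower.

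**Figure D5:**
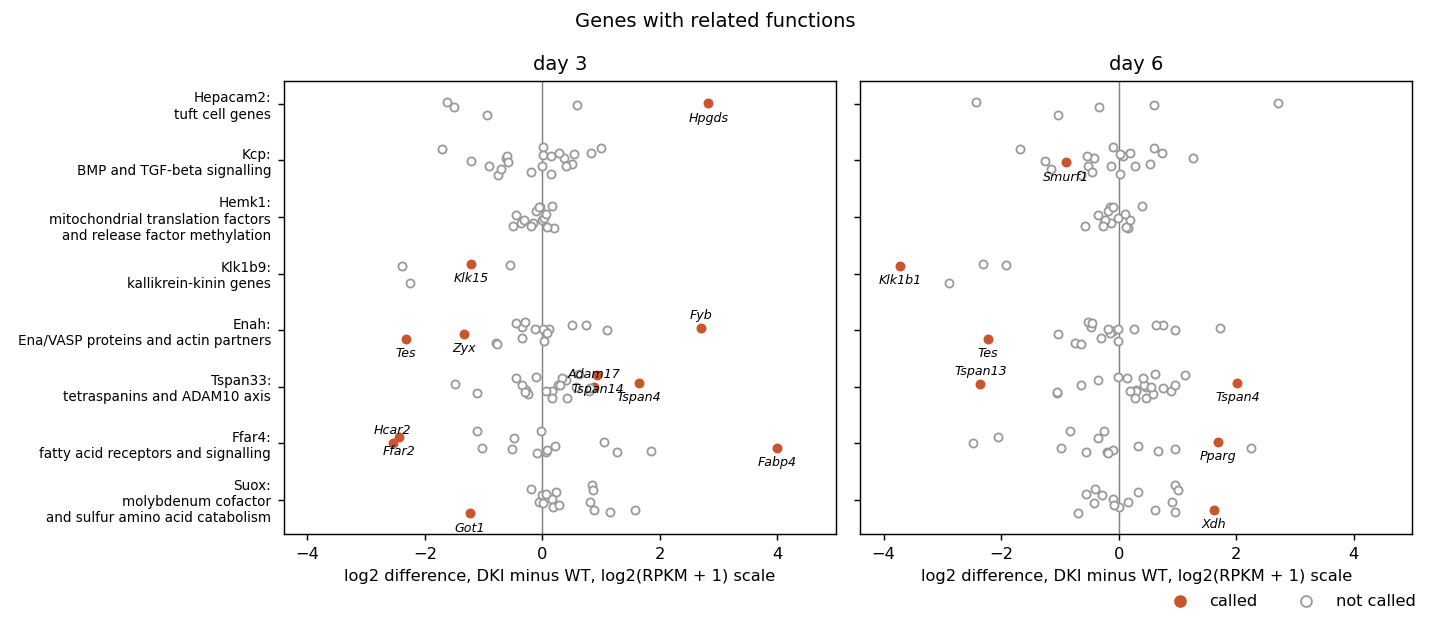
Log2 difference (DKI minus WT, log2(RPKM + 1) scale) on day 3 and day 6 of the genes listed by function with each of the 8 genes, with 1 circle per gene, filled and named where called by limma. Most circles lie near 0, and called genes lie on both sides.

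Many calls on neighbours and listed genes were lost when 1 library was left out, and so were many over all genes. Such a fit has fewer libraries, so a lost call need not come from the library left out. Genes called lower numbered 340 on day 3 and 360 on day 6, and without 1 library between 84 (without WT replicate 1) and 307 and between 18 (without DKI replicate 3) and 475. Without 1 library at a time, between 2 and 3 neighbours fell on day 3, whichever library was left out. On day 6 between 3 and 5 fell, except that 8 fell without WT replicate 2. Listed genes that fell numbered 1 to 5 on day 3, fewest without WT replicate 1 or WT replicate 3, and 0 to 6 on day 6, with 0 without WT replicate 1 or DKI replicate 1. *Cish*, on both days, *6430571L13Rik*, *Fyb* and *Fabp4* on day 3 and *Ikzf4* on day 6 were called under all 14 alternatives.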

How the data were processed

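The authors aligned single-end reads to mm10 with Subread, counted them on RefSeq genes with featureCounts, and deposited RPKM, 1 column per library. Versions, read length and strand are not given in the sources used here. Whole reads were recovered for 14974 of 14975 genes above 0 in at least 6 libraries (tolerance 0.01 read), from the step of 1 read in 947 receptor genes.

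For each day, log2(RPKM + 1) of the 10417 genes that exceeded 2 RPKM in the mean of any group was fitted with limma 3.58.1 (R 4.3.3, eBayes with trend) on that day's 6 libraries, with Benjamini-Hochberg adjustment over all genes. Genes were called at an adjusted p under 0.05 with a change of more than 1.5-fold, after the study's limits. Fold changes on this scale understate those of low genes. Intervals come from the spread between the libraries of a group, whereas floors of 3 reads cover counting error only. The script was tested on simulated data. Tables and figures were made in Python 3.11.15.

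The 8 genes and the lists were chosen with earlier results of these data known. Genes named are the 8, the 2 genes closest to each in profile, neighbours called on day 3 or 6, up to 4 called genes per list by size of change with the nearest paralogs, and *Stat5a*. Neighbours and positions came from RefSeq GRCm38.p6, which held 20078 of 20298 identifiers. Others named as not called, or as called only with the block, were chosen after their values were seen.

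Replicate numbers come from the labels, and the study states independent experiments. Deviations from group means of same-numbered WT and DKI libraries correlated at 0.69 to 0.87 on day 0, 0.16 to 0.36 on day 3 and 0.34 to 0.41 on day 6, so the numbers were taken to pair the libraries. The fit without a block was the main one. The labels give replicate 1 of days 3 and 6 an earlier year than the other libraries, and that difference cannot be told apart from the replicate number.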

Additional observations from a re-analysis of the deposited data

Results flagged for a closer look

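*Tspan33* moved in opposite directions in the genotypes from day 0 to day 3. Every WT library of day 3 lay above every WT library of day 0, and every DKI library of day 3 lay below every DKI library of day 0. The mean change was 1.38 in log2 units in WT and -1.003 in DKI, which differ by -2.38. The difference was not tested, since *Tspan33* was chosen on day 3 and day 6 values. Erythroid cell and eosinophil markers also fell from day 0 to day 3 in both genotypes, and their part in this change was not tested.

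Among the named neighbours and listed genes, 2 others went opposite ways in the same manner, and these differences were not tested either. For *Strip2* the change from day 0 to day 3 was 2.12 in WT and -0.46 in DKI, which differ by -2.58. For *Tspan13* the change from day 0 to day 6 was 1.11 in WT and -1.37 in DKI, which differ by -2.48.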

How the results depend on the processing

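The 8 genes kept their direction on days 3 and 6 under each of the 14 alternatives. Their median log2 difference, -3.25 and -3.27, became -4.29 and -4.08 with a pseudocount of 0.1 and -4.52 and -4.15 with limma voom on recovered reads, an alternative chosen after seeing the data, and lay between -3.50 and -3.11 and between -3.51 and -3.08 without 1 library. No gene of the 8 was called on day 0 under any alternative. Listed genes that fell on day 3 numbered 3 with no filter and 14 with all 18 libraries fitted together, those that rose 12 in the joint fit, and without 1 library they numbered 1 to 5 and 2 to 9. On day 6, listed genes that fell numbered 1 with no filter, 2 after quantile normalization and 14 in the joint fit, and those that rose 0 with no filter, 0 with the replicate block and 10 in the joint fit, with 0 to 6 and 0 to 5 without 1 library. Neighbours that fell numbered 10 on day 3 in the joint fit and 4 on day 6 with the replicate block, which also gave 1 that rose, and 2 to 3 and 3 to 8 without 1 library. The promoter share became 2.55% with 100 bases before the start, still with 0 of the 8 genes. Over all genes, the joint fit gave 795 lower and 555 higher on day 3 and 1037 and 508 on day 6, the fit with no filter 205 and 153 and 127 and 60, and the block 198 lower and 178 higher on day 3 and 152 and 84 on day 6, and median centring turned the day 6 split to 290 lower and 307 higher and quantile normalization to 240 and 265. The block changed calls in both directions among neighbours and listed genes, as given above, and none of the 8 genes on day 0. The cause of these changes was not tested.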
